A study of Mus musculus with 2 samples.

Results

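The loci described here are 10 annotated miRNA genes at which nearly all reads of a microRNA-seq experiment lay on the strand opposite to the annotated hairpin. They were chosen from their opposite-strand counts, and they are 10 of the 1973 miRNA genes in the count tables. The samples were 2 libraries of lung tissue from B6NCrl mouse embryos at embryonic day 14.5, made from total RNA with an RNA size below 30 nt. The libraries form 1 group for which the labels name no treatment and no altered allele, so no condition could be compared. The labels describe each as a single lung of 1 pup, with different collection days and a sex given as pooled, so a difference between replicates and one between collection days cannot be told apart.

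A miRNA is cut from a hairpin within a longer transcript, and only the strand that is transcribed gives the mature RNA. The reverse complement of a hairpin can often also be drawn as a hairpin, so a genome search may annotate a miRNA gene on either strand of the same locus. Genuine transcripts from both strands exist at a few loci, and a stranded count keeps them apart. At each of the 10 loci GENCODE M21 lists a second miRNA gene on the other strand, called here the partner: Mir409, Mirlet7e, Mir378a, Mir376a, Mir299a, Mir191, Mir497, Mir380, Mir142 and Mirlet7f-1. Counts listed under a partner's own name were used here for 0 of the 10, and 7 of the 10 loci carry predicted-gene names of the form Gm and a number. For all 10 the partner's identifier is numbered above every identifier in the tables, which per the readme were made with the older GENCODE M4. Strands and names given here are those of M21, and the M4 annotation was not used here. For 9 of the 10 loci the identifier has the same version in the tables and in M21, and the exception is Mir299b.

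The most abundant locus shows the arrangement. Gm24321 (ENSMUSG00000093089.1) lies at chr12:109743158-109743237 on the minus strand of mm10, and Mir409 at chr12:109743158-109743236 on the plus strand. In the sequence of Gm24321 (GENCODE M21 transcript) the capitals mark the reverse complements of both mature forms of miR-409, and in the RefSeq hairpin of Mir409 (GRCm38.p6, the mm10 sequence) they mark the mature forms themselves.
Gm24321: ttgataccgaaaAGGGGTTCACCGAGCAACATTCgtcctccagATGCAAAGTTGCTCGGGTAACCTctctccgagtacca
Mir409: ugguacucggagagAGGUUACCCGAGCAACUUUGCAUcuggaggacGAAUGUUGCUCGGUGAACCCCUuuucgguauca

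The RefSeq miRNA table held 9 of the 10 partners, with 18 mature forms. Of these, 16 were found in the reverse complement of the annotated gene and 0 in the gene itself. Both mature forms of Mir299a reach beyond the shorter Mir299b gene, which covers 49 of the 63 bases of that hairpin. The mature forms below are shown with the seed, bases 2 to 8 that pair with targets, in capitals, with 1 form for each of 7 partners so that their seeds can be compared.
miR-409-3p: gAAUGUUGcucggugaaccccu
miR-376a-3p: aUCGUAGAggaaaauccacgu
miR-380-3p: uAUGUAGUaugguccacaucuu
miR-191-5p: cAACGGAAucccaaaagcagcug
let-7e-5p: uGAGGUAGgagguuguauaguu
let-7f-5p: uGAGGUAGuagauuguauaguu
miR-497a-5p: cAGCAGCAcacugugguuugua
The seed of let-7e-5p and let-7f-5p was the only one shared among the 17 distinct seeds of the 18 forms. The seed of miR-497a-5p is that of miR-15a, miR-15b, miR-16, miR-195a and miR-322. The counts are per gene and do not say which arm of a hairpin was read.

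At 3 loci RefSeq also lists mature miRNAs for the annotated gene itself, so the strands can be set side by side. The capitals again mark bases 2 to 8.
miR-142a-3p: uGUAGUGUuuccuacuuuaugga
miR-142b: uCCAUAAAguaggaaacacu
miR-497a-3p: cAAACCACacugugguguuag
miR-497b: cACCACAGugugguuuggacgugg
miR-299a-5p: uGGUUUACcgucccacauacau
miR-299b-5p: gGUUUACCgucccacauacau
miR-299a-3p: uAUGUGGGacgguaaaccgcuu
miR-299b-3p: uAUGUGGGacgguaaacc
miR-142b and miR-497b are reverse complements of stretches of the partner's hairpin and occur nowhere in it in the same orientation. The Mir299 hairpin is nearly its own reverse complement, and both miR-299b forms are contained in the miR-299a forms. With positions counted from 1 at the 5′ end of the miR-299a form and its base given first, miR-299a-5p differs from the best match on the other strand only by U1C, and miR-299a-3p by G19A and C20U. All other bases of these forms are the same on both strands of that locus. The other 16 mature forms differ from the other strand of their hairpins at 3 to 10 bases.

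Opposite-strand reads far outnumbered gene-strand reads at each of the 10 loci, which is what chose them and is given as a description. Levels are given as CPM, the counts per 1000000 miRNA counts on the gene strand, and means with their SD over 2 libraries (n = 2). A read of this length spans a whole mature miRNA, so CPM were not divided by gene length. The gene-strand totals were 2332032 counts in replicate 2 and 5128214 in replicate 1. Together the loci held 67438 opposite-strand counts in replicate 2 and 149724 in replicate 1, against 5 and 11 gene-strand counts. They made up 99.6% of all opposite-strand counts in each library, and their counts came to 2.91% ± 0.0197 of the gene-strand total. With all mapped reads as the denominator, multimapping and no-feature reads included, that share was 1.68%. At 8 loci no gene-strand read was counted in either library. The limit that a count of 0 allows, 3 counts, corresponds to 1.29 CPM in replicate 2 and to 0.585 CPM in replicate 1, and covers counting error only, as do the intervals below.

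**Figure D1:**
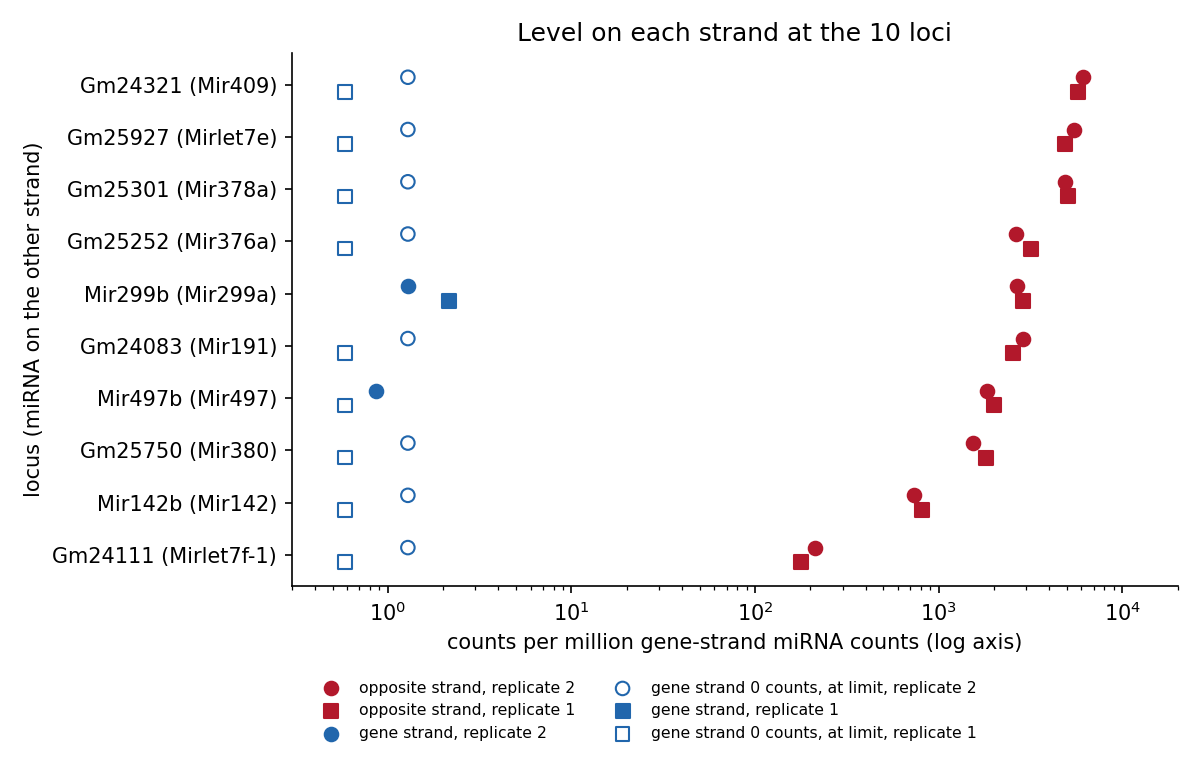
Opposite-strand levels (red) and gene-strand levels (blue) of the 10 loci in CPM on a log axis, with circles for replicate 2 and squares for replicate 1; open symbols mark 0 gene-strand counts, drawn at the limit of 3 counts. Opposite-strand levels range from 179 to 6089 CPM, and no gene-strand level exceeds 2.14 CPM.

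The gene strand was read at only 2 of the 10 loci, both with a mature miRNA of its own in RefSeq. Mir299b had 6211 opposite-strand counts in replicate 2 and 14777 in replicate 1, against 3 and 11 gene-strand counts. The opposite-strand counts were 2070-fold the gene-strand counts in replicate 2 (95% exact binomial interval 708 to 10042) and 1343-fold in replicate 1 (751 to 2692). Whether the few gene-strand reads differ from miR-299a reads by the bases named above was not tested. A read with exactly the sequence of either miR-299b form fits both strands, and reads that aligned to several places were assigned to no gene. The folds are thus those of reads assigned to a single strand, and the part of the missing reads was not tested. Mir497b had 4297 and 10309 opposite-strand counts in replicates 2 and 1, against 2 and 0 gene-strand counts. Mir142b had 1712 and 4187 opposite-strand counts and 0 gene-strand counts in both libraries, so miR-142b was not detectable at this depth.

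Opposite-strand reads were rare at nearly all other annotated genes. Of 330 genes with at least 10 counts over both strands in each library, 3.03% were read mostly on the opposite strand in both libraries, and these were the 10 loci. Over all other genes the opposite strand held 0.0107% of the counts on both strands of those genes in replicate 2, with a 95% exact binomial interval of 0.00939 to 0.0121. In replicate 1 it held 0.0122%, with an interval of 0.0113 to 0.0132. Of the other 320 genes, 288 had no opposite-strand count in either library and 4 had over 1% in both. The lowest share among the 10 loci was 99.9%, for Mir299b in replicate 1. The nearest gene outside was Mir3074-1, with Mir24-1 on its other strand. Its opposite strand held 151 counts in replicate 2 and 442 in replicate 1, against 235 and 390 gene-strand counts, a share of 39.1% and 53.1%. Reads that aligned to several places were assigned to no gene, and their part in this share was not tested. The next was Mir486, with 9 and 4 opposite-strand counts against 30 and 45 gene-strand counts. With no minimum beyond 1 count in each library, Gm24513 and Mir8105 were also mostly opposite, with at most 2 counts per library.

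**Figure D2:**
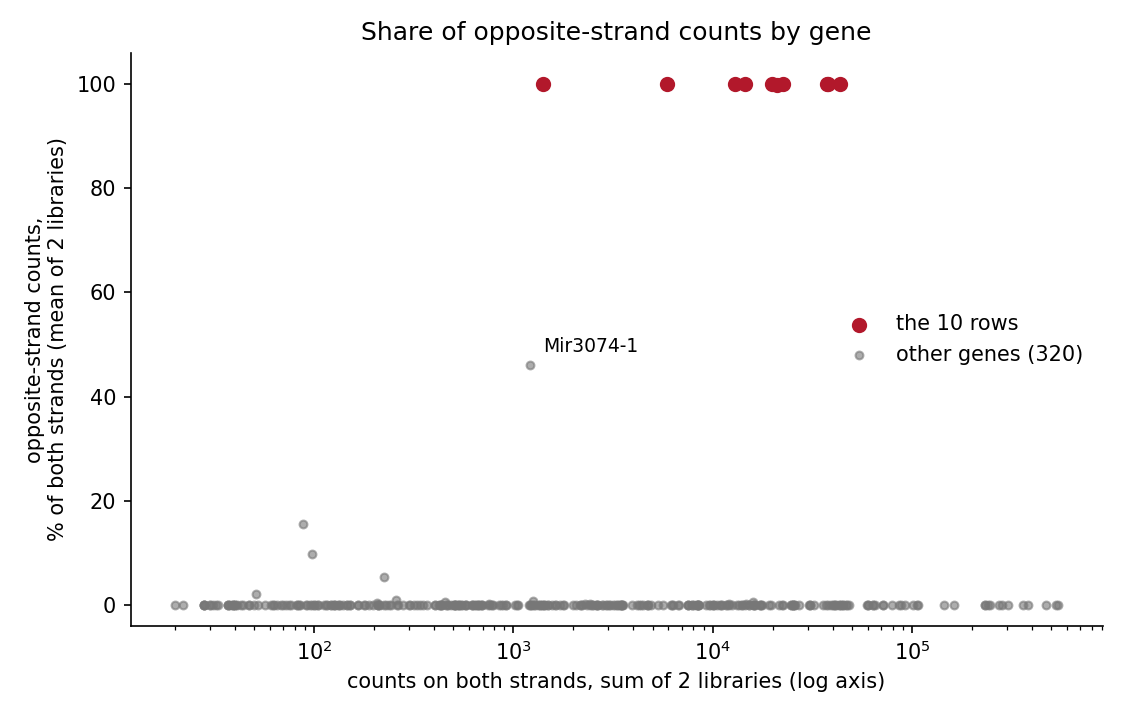
Share of opposite-strand counts (mean of 2 libraries) against the summed counts on both strands (log axis) for the 330 genes with at least 10 counts in each library. The 10 loci (red) lie at the top, Mir3074-1 at 46.1%, and all other genes at 15.6% or less.

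Most other genes with a second miRNA on the other strand were read on their own strand. M21 lists such a miRNA for 32 genes of the tables, and counts under the name of that second miRNA were used here for 0 of the 32. Of the 22 such genes with at least 10 counts in each library, 10 are the loci described here and 11 of the other 12 were read mostly on the gene strand in both libraries. Mir30e had 0 and 0 opposite-strand counts, on the strand of Mir30f, against 60760 gene-strand counts in replicate 2 and 102628 in replicate 1. Mir126a, in the same order, had 13 and 34 opposite-strand counts, on the strand of Mir126b, against 136280 and 389911 on its own strand. Mir3071 had 1 opposite-strand count in each library, on the strand that M21 gives to Mir136, and 678 and 1754 gene-strand counts. Its identifier has another version in M21, as have those of Mir299b, Mir3074-1 and Mir337, and whether their strands are the same in M4 was not tested. Among genes named Gm and a number, 843 were listed and 9 had at least 10 counts in each library. Besides the 7 loci these were Gm23450 and Gm23935, both with 0 opposite-strand counts.

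The levels of the 10 loci spanned 30.3-fold. Gm24321 was highest at 5927 ± 229 CPM, first in both libraries. Gm25927 (5166 ± 372) and Gm25301 (4984 ± 141) followed and changed places between the libraries. Gm25252 (2912 ± 397), Mir299b (2772 ± 154) and Gm24083 (2717 ± 245) came next and differed by less than their spread. Mir497b (1926 ± 119) stood above Gm25750 (1682 ± 198) in both libraries, with a difference close to their spread. Mir142b (775 ± 58.2) and Gm24111 (196 ± 24.1) were lowest. Placed among the gene-strand levels, Gm24321 would take place 36 and Gm24111 place 161. Gm24321 held 20.4% of the opposite-strand counts of the 10 loci, averaged over the libraries.

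The 4 loci on chromosome 12 lie in the imprinted Dlk1-Dio3 domain, whose miRNAs are transcribed from the maternal chromosome in long noncoding RNAs. They held 44.7% of the counts of the 10 loci in replicate 2 and 46.8% in replicate 1. All 4 are annotated on the minus strand and were read on the plus strand. The 53 other miRNA genes of that region used for comparison were taken because they are annotated on the plus strand. Their shared strand is thus no result, and other minus-strand genes of the region were not included. Among the resulting 57 levels Gm24321 took place 5, Gm25252 place 10, Mir299b place 11 and Gm25750 place 15.

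Gm24321, read on the strand of Mir409 within an intron of the noncoding gene Mirg, had 6089 CPM in replicate 2 and 5765 in replicate 1. The opposite strand exceeded the gene strand at least 4733-fold in replicate 2 and at least 9854-fold in replicate 1. Its 3 listed plus-strand neighbours were lower in both libraries. Mir369, 181 bases away, stood at 3424 ± 865 CPM, Mir410 at 136 ± 20.6 and Mir412, only 52 bases away, at 65.9 ± 8.29. The log2 ratio of Gm24321 to Mir369 was 0.81 ± 0.42, and to Mir412 it was 6.50 ± 0.24 (SD, n = 2). The level of Gm24321 thus differed from that of each of the 3 by more than the spread between libraries. How readily each sequence enters a library was not measured, so ratios between miRNAs are ratios of reads.

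Gm25252 (chr12:109723756-109723875, minus strand) lies opposite Mir376a, of a family whose primary transcripts are edited from adenosine to inosine in brain. It had 2631 CPM in replicate 2 and 3192 CPM in replicate 1. Mir376c, of the same family, was lower at 345 ± 15.4 CPM, and Mir300 stood at 844 ± 54.7. The log2 ratios to them were 3.07 ± 0.13 and 1.78 ± 0.29. Mir376b was not analysed here.

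Mir299b (chr12:109710645-109710693, minus strand) and Gm25750 (chr12:109711779-109711890, minus strand) are close neighbours, opposite Mir299a and Mir380. The 5p form of miR-380 is known to repress p53 in neuroblastoma. Mir299b had 2663 CPM in replicate 2 and 2882 CPM in replicate 1, and Gm25750 had 1542 and 1822 CPM. Mir299b exceeded Gm25750 1.73-fold in replicate 2 and 1.58-fold in replicate 1. Both lay below Mir411, with log2 ratios of -1.66 ± 0.30 for Mir299b and -2.39 ± 0.21 for Gm25750. Mir411 had the highest mean of the 57 levels of the region, at 8925 ± 2330 CPM. In replicate 2, however, Mir127 had more counts, 18849 against 16973. Mir299b also lay below Mir379 (5938 ± 1230 CPM, log2 ratio -1.08 ± 0.22), while Gm25750 lay above Mir323 (441 ± 24.01 CPM, log2 ratio 1.93 ± 0.09).

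**Figure D3:**
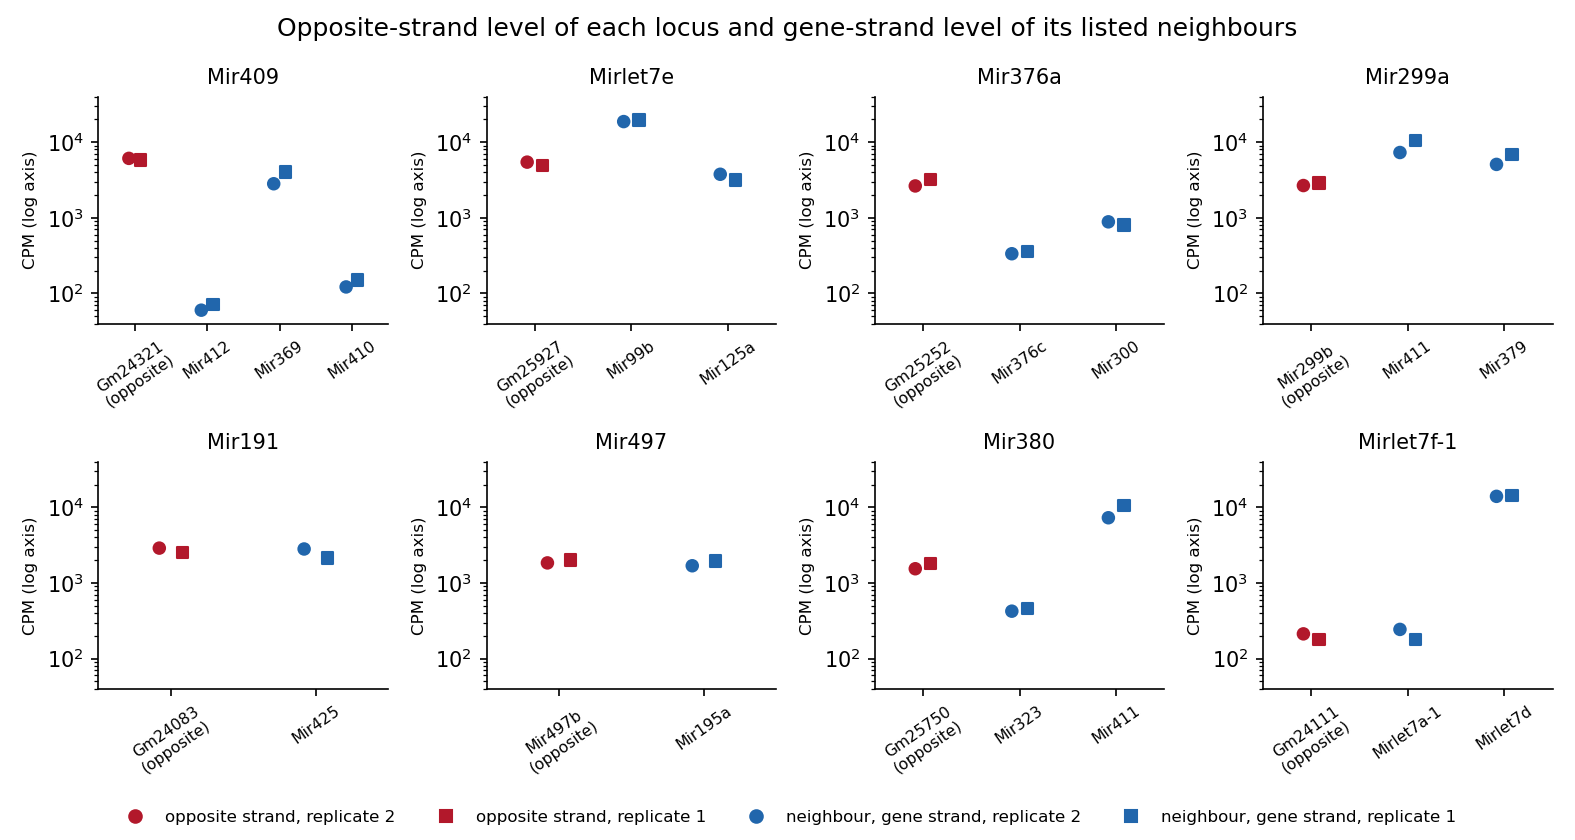
Opposite-strand level of each locus (red) and gene-strand levels of its listed neighbours on the partner's strand (blue), in CPM on a log axis, with circles for replicate 2 and squares for replicate 1; each panel is named for the partner. The locus and its neighbour are close for Mir191 and Mir497, and for Mirlet7a-1 in the panel of Mirlet7f-1 (log2 ratio -0.10). They are farthest apart for Mir412 (log2 ratio 6.50) and Mirlet7d (-6.19).

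The let-7 family restrains growth regulators such as Ras, Hmga2 and Lin28 and is encoded by many genes, of which 2 were read opposite to an annotated hairpin. Gm25927 (chr17:17830343-17830459, minus strand) lies in an intron of Spaca6 opposite Mirlet7e, in a cluster with Mir99b and Mir125a. It had 5430 CPM in replicate 2 and 4903 CPM in replicate 1. Mir99b, 94 bases away, stood at 19142 ± 701 CPM and Mir125a at 3444 ± 437, with log2 ratios of -1.89 ± 0.16 and 0.59 ± 0.08. Gm24111 (chr13:48537825-48537921, plus strand) lies opposite Mirlet7f-1 in an exon of the noncoding gene 6720427I07Rik. It had 213 CPM in replicate 2 and 179 CPM in replicate 1. Its neighbour Mirlet7a-1 stood at a like level, 212 ± 45.2 CPM, and Mirlet7d, in the same cluster, at 14184 ± 316 CPM (log2 ratio -6.19 ± 0.21). The mature let-7f-5p is also encoded by Mirlet7f-2 (2224 ± 103 CPM), and reads that aligned to several places were assigned to no gene. Let-7a likewise has another listed gene, Mirlet7a-2 (188 ± 34.7 CPM). The part of reads aligned to several places in the levels at Gm24111 and Mirlet7a-1, and in the ratio to Mirlet7d, was not tested.

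Beside the 10 listed let-7 genes with counts on their own strand, which held 116070 CPM in replicate 2 and 123112 CPM in replicate 1, both loci added 5642 and 5082 CPM. That was 4.30% ± 0.475 of the joint sum. Reads that aligned to several places are missing from this sum. The share and the order of levels are thus those of reads assigned to 1 gene, and the part of the missing reads was not tested. Let-7e at Gm25927 stood between Mir98 (7892 ± 330 CPM) and Mirlet7b (4130 ± 3.73 CPM) in order of level.

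Mir497b (chr11:70234692-70234816, minus strand) lies opposite Mir497, which pairs with Mir195a in a cluster of the miR-15/16 family, a family that targets cell cycle genes. It had 1843 CPM in replicate 2 and 2010 CPM in replicate 1. Mir195a stood at 1823 ± 189 CPM, so that the log2 ratio was only 0.08 ± 0.06. The 6 listed family members on their own strand held 58022 CPM in replicate 2 and 65359 CPM in replicate 1, most of it Mir322 (46826 ± 5454). The opposite-strand counts at Mir497b were 3.03% ± 0.0665 of the joint sum, between Mir15b (3010 ± 18.3 CPM) and Mir195a. Reads that aligned to several places are missing from this sum too, and their part was not tested.

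Gm24083 (chr9:108568295-108568414, minus strand) lies opposite Mir191, a broadly expressed miRNA, in an exon of the noncoding gene 4833445I07Rik. It had 2890 CPM in replicate 2 and 2543 CPM in replicate 1. Mir425, the other miRNA of this cluster, stood at 2480 ± 472 CPM and the log2 ratio was 0.14 ± 0.15. The levels of the pair thus differed by less than the spread of either between the libraries.

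Gm25301 lies on chromosome 18 opposite Mir378a, in an intron of Ppargc1b, the gene of a coactivator of mitochondrial metabolism. In mice miR-378 is known to modulate energy metabolism. It had 4884 CPM in replicate 2 and 5083 in replicate 1. The other listed genes of the miR-378 family were scarce, and 0 of the 3 reached 10 counts in both libraries. Mir378b, Mir378c and Mir378d together held 3.86 CPM in replicate 2 and 4.09 CPM in replicate 1, so that 99.9% of the family's counts in each library lay opposite Gm25301. Reads that aligned to several places are missing from these counts, and sequences of this family were not compared here. The scarcity and the share are thus those of reads assigned to a single gene, and the part of the missing reads was not tested.

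Mir142b (chr11:87756841-87756955, minus strand) lies opposite Mir142, a miRNA of blood cells, in an intron of the noncoding gene Mir142hg. It had 734 CPM in replicate 2 and 816 CPM in replicate 1. Among white blood cell miRNAs this exceeded Mir223 (564 ± 34.8 CPM), Mir146 (171 ± 21.01), Mir155 (76.0 ± 18.1) and Mir150 (36.2 ± 3.93) in both libraries. It was 46.4% of the joint sum of these 5 in replicate 2 and 49.1% in replicate 1. The erythroid Mir451a stood at 367.5 ± 38.2 CPM. In a bulk tissue, fewer cells of a type and less RNA per cell cannot be told apart. The endothelial Mir126a (6.72% ± 1.24 of gene-strand counts), the smooth muscle pair Mir143 and Mir145a (7.09% ± 1.26) and the 5 epithelial miR-200 genes (3.35% ± 0.0308) were all present. No miRNA of these lists marks lung alone, so the lists show cell types of the tissue and do not test its label.

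The 2 libraries gave like levels for the 10 loci, a comparison that the choice of the loci did not use. Log2 ratios of replicate 2 to replicate 1, on CPM scaled by the trimmed mean of M-values (TMM) with 1 CPM added, ran from -0.37 for Gm25252 to 0.16 for Gm24111. The median ratio was -0.17, beside -0.03 over all 421 features tested, and the median absolute ratio was 0.18 beside 0.23. Exact two-sided binomial tests with Benjamini-Hochberg adjustment over these 421 gene-strand and opposite-strand counts, at an adjusted p of 0.05, called 42.5% of all features, 75 higher and 104 lower in replicate 2. That split was 117 and 72 with library totals in place of TMM and 62 and 115 with DESeq2 size factors. The test called 8 of the 10 loci, 2 higher in replicate 2 (17.8% of all features) and 6 lower (24.7%). Among features whose counts lay within the range of the 10 loci 73.2% were called, so 8 of 10 is near the background.

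Gm25252 was the locus that differed most between the libraries, at a log2 ratio of -0.37 (adjusted p = 2.45e-66, exact binomial test), and Gm25750 followed at -0.33 (adjusted p = 2.54e-31). Both were lower in replicate 2 under all 3 scalings. Gm24083 (0.09, adjusted p = 4.62e-05) and Gm25927 (0.06, adjusted p = 0.000785) were higher in replicate 2 with TMM and with library totals, but were not called with DESeq2 size factors (0.05, adjusted p = 0.067, and 0.01, adjusted p = 0.685). Gm24321 had a ratio of -0.01 (adjusted p = 0.654) and Gm24111 one of 0.16 (adjusted p = 0.0967), neither past the threshold. With library totals both were called higher in replicate 2, at 0.08 and 0.25, and with DESeq2 size factors Gm24321 was called lower, at -0.06. The neighbours of Gm24321 were lower in replicate 2, with -0.61 for Mir369, -0.40 for Mir410 and -0.34 for Mir412, the last not called with library totals (adjusted p = 0.153). The difference between these ratios and that of Gm24321 was not tested. The other pairs of locus and neighbour moved the same way in some cases and opposite ways in others. Mir497b and Mir195a had ratios of -0.21 and -0.30, and Gm24083 and Mir425 had 0.09 and 0.30. Mir299b had -0.20, beside -0.63 for Mir411 and -0.51 for Mir379, and Gm25750 had -0.33, beside -0.20 for Mir323, which was not called with library totals (adjusted p = 0.0895). Gm25927 had 0.06, beside 0.17 for Mir125a but -0.16 for Mir99b, which was called lower in replicate 2 under all 3 scalings. Gm24111 had 0.16, beside 0.35 for Mirlet7a-1 but -0.13 for Mirlet7d, also called lower under all 3. Gm25252 had -0.37, beside -0.18 for Mir376c, which was not called with library totals (adjusted p = 0.263), and 0.04 for Mir300, which was not called with TMM (adjusted p = 0.437) and was called higher with library totals. None of the differences within these pairs was tested.

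Of the 10 listed let-7 genes 2 were higher and 5 lower in replicate 2 with TMM, with a median ratio of -0.04, but 5 were higher and 4 lower with library totals, with a median of 0.05. Of the 6 miR-15/16 genes 2 were higher and 4 lower with TMM, with a median of -0.12, and 2 higher and 3 lower with library totals. The cell type lists moved between the libraries as well. The endothelial Mir126a was called lower in replicate 2 (-0.47), as were the smooth muscle Mir143 (-0.46) and the erythroid Mir144 (-1.08) and Mir451a (-0.30), while Mir145a had -0.03 and was not called. The endothelial and erythroid miRNAs were also called lower with library totals and with DESeq2 size factors. Of the 4 white blood cell genes 1 was higher and 1 lower with TMM, against 2 and 1 with library totals, and of the 5 epithelial genes 1 was higher and 1 lower with TMM, against 4 and 1 with library totals. Mir208a, a miRNA of heart muscle, had 27 counts in replicate 2 and 1533 in replicate 1. The part of these cell types and of heart tissue in the differences of the 10 loci between replicates was not tested.

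**Figure D4:**
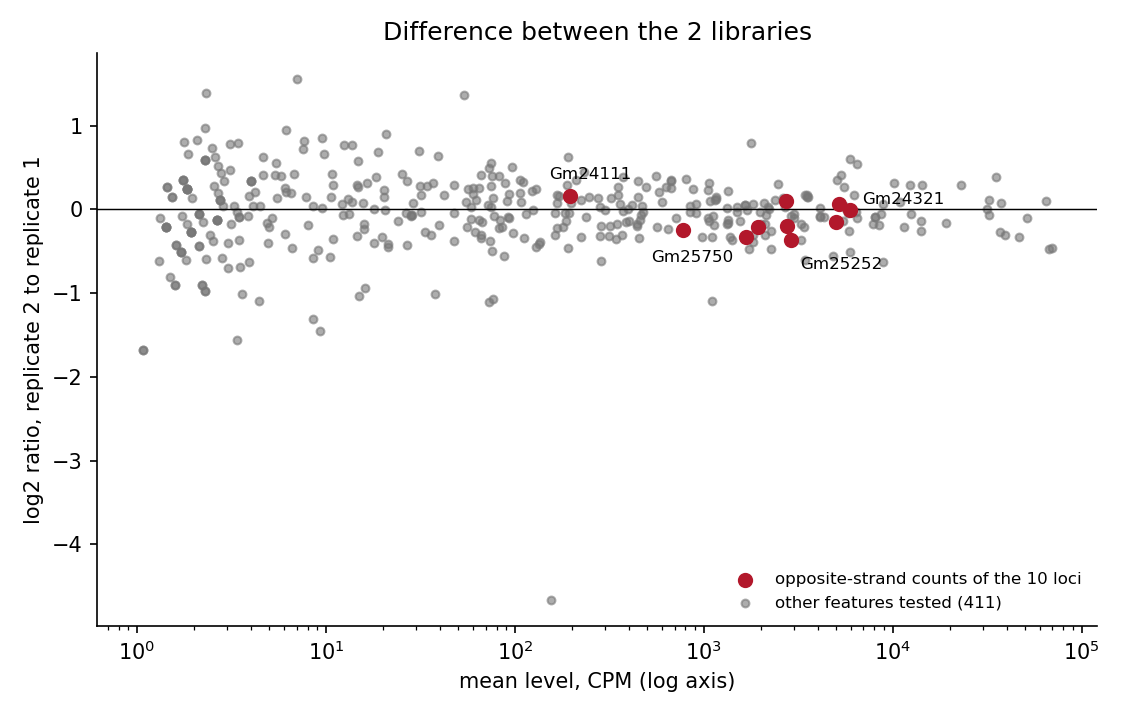
Log2 ratio of replicate 2 to replicate 1 against mean level in CPM (log axis) for 421 features, the opposite-strand counts of the 10 loci in red. The 10 loci lie between -0.37 and 0.16, within the spread of other features of like level.

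These tests compare the reads of 2 libraries and not conditions. A further test averaged binomial tail probabilities numerically over a spread set by edgeR's common dispersion of both libraries. In it 0 of the 10 loci passed and 0 had an unadjusted p under 0.05. In the binomial test with library totals 4 loci were called higher in replicate 2 and 6 lower. Over all 421 features 117 were called higher and 72 lower. With DESeq2 size factors 0 loci were called higher and 7 lower, and over all features 62 and 115. The share called among features of like counts was not computed for these scalings, so these counts are no result about the loci.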

How the data were processed

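MicroRNA-seq counts of 2 libraries of E14.5 mouse lung were used. The authors deposited raw counts for each miRNA gene in 3 columns. The first equalled the sum of the others in all 1973 genes, so they were read as both strands, the gene's strand and the opposite strand. Per the deposited readme, alignments were to mm10 with GENCODE M4. Aligner and counter were not given in the sources used here. Unmapped (11.7% and 12.7% of reads in replicates 2 and 1), multimapping (33.1% and 32.9%) and no-feature (2.44% and 2.63% without regard to strand) reads name no gene and stayed out. Tables held 4544184 and 10200412 reads, and 0 value columns lacked a sample.

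Of the identifiers, 1894 matched GENCODE M21, which gave symbols, strands and partners. RefSeq gave mature miRNAs. CPM were over gene-strand totals. Intervals are exact (Clopper-Pearson, 95%). Each gene-strand or opposite-strand count of at least 10 over both libraries was tested between replicates with an exact two-sided binomial test on TMM-scaled sizes. With 1 library per replicate edgeR's quasi-likelihood test has no residual degrees of freedom. The binomial procedure was run on simulated Poisson counts, with no spread between libraries beyond counting error and set changes. That run does not show how often the test calls features when libraries vary more. The p-values measure only the difference between these libraries, which may be technical.

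Members, lists, neighbours and tests were chosen with earlier results of these data known. Named genes are the 10 loci, their partners, listed neighbours, family members and cell type miRNAs, and other genes mostly opposite in both libraries. Mir3074-1, Mir486, Mir30e, Mir127, Mir3071, Mir337, Mir208a, Gm23450 and Gm23935 were named after their values were seen. Mir126a was listed for endothelium, but its use among genes with a second miRNA on the other strand was also chosen after its values were seen. Software was R 4.3.3, edgeR 4.0.16, DESeq2 1.42.0 (size factors) and Python 3.11.15 with scipy 1.17.1.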

Additional observations from a re-analysis of the deposited data

How the results depend on the processing

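The joint share of the 10 loci, 2.91% of gene-strand counts, was 2.82% with both strands as denominator, 1.68% with mapped reads including multimapping and no-feature ones, 2.31% without Gm24321, and 2.89% to 2.92% without 1 replicate each. The number of genes read mostly opposite stayed 10 to 12 under the 5 alternatives, and the 10 loci were among them each time. Mir3074-1 joined them without replicate 2. Of 421 features, 179 were called, 75 higher and 104 lower in replicate 2. That count was 169 to 189 under 5 of the alternatives, and the split was 117 and 72 with library totals and 62 and 115 with DESeq2 size factors. With the common dispersion of 0.0335 added, itself estimated from the same 2 libraries, 1 was called, Mir208a, and 17 had an unadjusted p under 0.05. The log2 ratio of Gm24321 turned to 0.079 with library totals, against -0.01 with TMM. For strand shares and ratios to neighbours, leaving out 1 of 2 libraries cannot move a mean beyond their SD, and so says nothing of stability. Counting neighbours without regard to strand changed no ratio but that to Mir425, and it by less than the spread. No paired analysis was possible because there is 1 group.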
